A study of Rattus norvegicus with 6 samples.

Results

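The miR-23/27/24 strands are the mature microRNAs (miRNAs, small regulators that silence messenger RNAs) cut from 2 paralogous gene clusters, miR-23a/27a/24-2 and miR-23b/27b/24-1. Of the 728 mature miRNAs listed, 10 were taken by name, and all 10 names were present. On the 3p side they were rno-miR-23a-3p, rno-miR-23b-3p, rno-miR-27a-3p, rno-miR-27b-3p and rno-miR-24-3p, and on the 5p side rno-miR-23a-5p, rno-miR-27a-5p, rno-miR-27b-5p, rno-miR-24-1-5p and rno-miR-24-2-5p (the species prefix rno is left out from here on). Small RNA had been sequenced from cardiac fibroblasts of Wistar rats at postnatal day 1 to 2 and from the exosomes of such cells, small membrane vesicles ultracentrifuged out of medium that had been on the cells for 48 h. The labels name no transgene, mutation or drug in either group. The cells were grown with 10% serum, and the medium for exosomes held 1% serum depleted of exosomes. These serum values and the 48 h are listed for the fibroblast samples as well. There were 3 exosome libraries (numbers 1 and 2, and 1 whose column bore no number, called unnumbered here) and 3 fibroblast libraries (numbers 1, 2 and 4). Nothing in the labels says that replicates came from separate cultures, so a p-value here weighs a difference against a spread between libraries that may be technical.

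Each miRNA hairpin can give 2 strands. As background, the 3p strand is the usual guide in these clusters, the strand that Argonaute proteins keep, while the 5p strand is the usual passenger, which is mostly degraded. The clusters are known from endothelium, heart and muscle, where miR-24 has been tied to fibrosis and cell survival, miR-27 to lipid metabolism and blood vessel sprouting, and miR-23 to muscle atrophy genes and glutamine use. Mature miRNAs are sequenced whole, so levels of different strands were compared as reads per strand without a length correction. Whether different strands are captured equally well was not tested, so an order of strands here is one of reads, not of molecules. The strands with a RefSeq sequence are 21 to 24 bases long.

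The sequences show which strands are near copies of each other and so limit what their counts can separate. They are from RefSeq (build GRCr8), 5′ to 3′, with the seed, bases 2 to 8, in capitals, and 9 of the 10 strands matched (the other is miR-23a-5p).

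miR-23a-3p: aUCACAUUgccagggauuucc
miR-23b-3p: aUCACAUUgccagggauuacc
miR-27a-3p: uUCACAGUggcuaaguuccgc
miR-27b-3p: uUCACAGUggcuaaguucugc
miR-24-3p: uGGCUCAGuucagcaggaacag
miR-24-1-5p: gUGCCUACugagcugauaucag
miR-24-2-5p: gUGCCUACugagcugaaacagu
miR-27a-5p: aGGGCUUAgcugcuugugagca
miR-27b-5p: aGAGCUUAgcugauuggugaacag

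The 9 strands carried 6 seeds. The miR-23 pair shared a seed and differed at 1 base, U19A from 23a to 23b, counted from the 5′ end. The miR-27 pair shared another seed and also differed at 1 base, C19U from 27a to 27b. Reads with an error or a trimmed end can therefore be split between these near-identical strands by the authors' counting, whose rule is not given in the sources used here. miR-24-3p is 1 sequence cut from 2 hairpins, and its reads cannot be assigned to a cluster. The 2 miR-24 5p strands share a seed and their first 16 bases and differ at 5 positions, so they can be counted apart. No other listed miRNA with a RefSeq sequence, of 655 with one, had any of these 6 seeds.

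In GRCr8 the Mir23a, Mir27a and Mir24-2 hairpins lie at chr19:40859455-40859843 on the minus strand and overlap no other RefSeq gene. Mir23b, Mir27b and Mir24-1 lie at chr17:1818669-1819482 on the minus strand, inside the span of the gene Aopep, and the end of Mir24-1 also overlaps Fancc. The submitters' processing notes name another build (rn5), and these positions were not converted to it. On the opposite strand of Mir24-1, miR-3074 overlaps miR-24-1-5p by 20 bases. Whether the counting used strand is not stated, so reads of these 2 could be mixed. miR-3074 had 4, 7 and 2 counts in exosome libraries 1, 2 and unnumbered and 175, 1289 and 40 in fibroblast libraries 1, 2 and 4, and did not pass the test between groups (log2 fold change 0.20, SE 0.73, edgeR adjusted p = 0.87).

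Depth differed widely between groups: 113129 to 120224 miRNA counts per exosome library against 2439559 to 12508651 per fibroblast library, and miR-873-3p alone took 84.9% to 90.1% of the exosome counts. The unnumbered exosome library stood apart from libraries 1 and 2 (chi-square per degree of freedom 19.5 and 14.5, against 4.10 between libraries 1 and 2), and values without it are given where they differ most. Fibroblast identity was checked with 5 markers of fibroblasts and mesenchyme, all detected, which held 33.7% to 38.2% of fibroblast counts and 0.0890% to 0.855% of exosome counts, most in the unnumbered library. The 5 cardiomyocyte markers held 0.0149% or less in every library. The 2 endothelial markers, of interest since the clusters are known from endothelium, summed to 718 to 2237 CPM (counts relative to library size, scaled by TMM, edgeR's trimmed mean of M values) in exosomes and 73.5 to 192 CPM in fibroblasts. Their exosome counts of 116, 95 and 115 shrank to 14, 7 and 22 in the reads behind the authors' normalized table, and their part in the results below was not tested. The 5 blood markers listed lay at 161 to 389 CPM in exosomes and 71.9 to 309 CPM in fibroblasts, and the 5 epithelial ones at 102 to 260 and 109 to 140 CPM, with no marker at 0 throughout a group.

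The first question was how much of the miRNA counts of each library the 10 strands made up. The 10 strands held 144730, 267769 and 44529 counts in fibroblast libraries 1, 2 and 4 and 167, 121 and 204 counts in exosome libraries 1, 2 and unnumbered. As a share of all miRNA counts this came to 2.08% ± 0.229 in fibroblasts and 0.139% ± 0.0322 in exosomes (SD, n = 3 each), without overlap (exact two-sided permutation p = 0.1, below which 3 libraries against 3 cannot go). In the reads behind the authors' normalized table, with the non-miRNA reads added to the total, exosomes minus fibroblasts came to -0.585 percentage points (exact permutation p = 0.1). In these bulk libraries, fewer cells or vesicles that hold a strand and fewer copies in each cannot be told apart. With miR-873-3p left out of the total, the exosome share was 1.16% ± 0.488 and the fibroblast share 2.11% ± 0.218 (SD, n = 3 each, exact permutation p = 0.1). The 95% Clopper-Pearson interval of that share was 0.786% to 1.07% in exosome library 1, 0.701% to 1.01% in library 2 and 1.498% to 1.98% in the unnumbered library, against 1.87% in fibroblast library 4. These intervals, and the limits given for counts of 0, allow for counting error alone, because PCR copies 1 molecule into many reads.

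The 3p and 5p strands contributed differently in cells and exosomes. In fibroblasts the 5p strands made up 5.33%, 6.21% and 7.05% of the cluster counts in libraries 1, 2 and 4. In exosomes they made up 50.3% (95% Clopper-Pearson interval 42.5 to 58.1) in library 1, 73.6% (64.8 to 81.2) in library 2 and 27.5% (21.5 to 34.1) in the unnumbered library. Every exosome library thus lay above every fibroblast library (exact two-sided permutation p = 0.1). Of the counts of all miRNAs, the 3p strands fell from 1.95% ± 0.231 in fibroblasts to 0.0739% ± 0.0482 in exosomes, and the 5p strands from 0.128% ± 0.00614 to 0.0652% ± 0.0163 (SD, n = 3 each, exact permutation p = 0.1 for each). Without the unnumbered library the 3p share of exosomes was 0.0487% (n = 2). Without miR-873-3p in the total, the 5p strands held the larger share in exosomes, 0.519% ± 0.0883 against 0.129% ± 0.00596, and the 3p strands the smaller, 0.644% ± 0.539 against 1.98% ± 0.222 (SD, n = 3 each, exact permutation p = 0.1 for each). That 3p share was 0.457%, 0.223% and 1.25% in exosome libraries 1, 2 and unnumbered, and 0.340% as the mean of libraries 1 and 2.

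**Figure D1:**
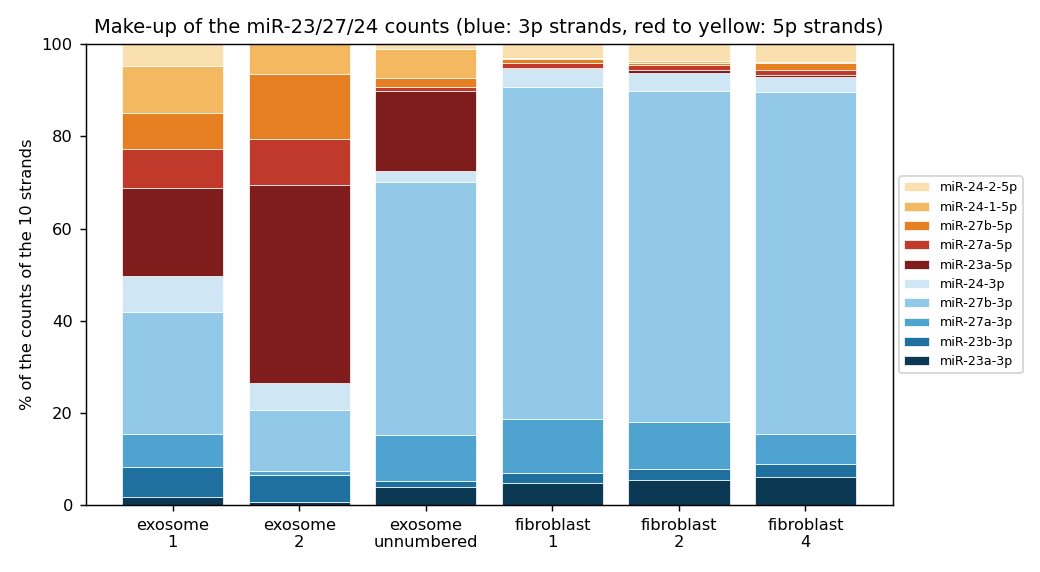
Make-up of the counts of the 10 strands in each library, as % of their sum (stacked bars, blue for 3p strands, red to yellow for 5p strands). miR-27b-3p fills 71.7% to 74.0% of the fibroblast bars, and the 5p strands fill 27.5% to 73.6% of the exosome bars.

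Among the 3p strands, miR-27b-3p, which is known to restrain the adipogenic receptor PPARγ, led the clusters in fibroblasts. It had 104327, 191975 and 32965 counts in fibroblast libraries 1, 2 and 4, or 13889 ± 5347 CPM (SD, n = 3), and was the 14th most abundant of all listed miRNAs there. In exosomes it had 44, 16 and 112 counts in libraries 1, 2 and unnumbered, or 859 ± 1146 CPM. The unnumbered library was the highest of the exosomes and the lowest fibroblast value, 7715 CPM, was above it. The fitted difference was 16.4-fold lower in exosomes (log2 fold change -4.04, SE 1.33, adjusted p = 0.011 by the quasi-likelihood test of edgeR, Benjamini-Hochberg over all tested miRNAs, n = 3 per group). This call was lost without exosome library 1 (adjusted p = 0.10) and without exosome library 2 (adjusted p = 0.082), and without the unnumbered library the log2 fold change was -6.23 (adjusted p = 5.4e-05).

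Its paralogue miR-27a-3p, with the same seed, had 16802, 27252 and 2933 counts in fibroblast libraries 1, 2 and 4 and 12, 1 and 20 counts in exosome libraries 1, 2 and unnumbered. The groups did not overlap, and the unnumbered library was again the highest exosome value (389 CPM). Exosomes had 12.4-fold less (log2 -3.64, SE 0.94, edgeR adjusted p = 0.00088), or -5.48 on the log2 scale without the unnumbered library.

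miR-23a-3p, known to repress glutaminase, had 7182, 14696 and 2694 counts in fibroblasts and 3, 1 and 8 in exosomes, in the same library order. The decrease in exosomes was 22.0-fold (log2 -4.46, SE 0.92, edgeR adjusted p = 2.9e-05), and -6.39 on the log2 scale without the unnumbered library. The groups stood clear of each other, from 591 to 1394 CPM in fibroblasts against 7.83 to 156 CPM in exosomes. miR-23b-3p, of the other cluster, had 3039, 6692 and 1277 counts in fibroblasts and 11, 7 and 3 in exosomes, a 7.78-fold decrease (log2 -2.96 with an SE of 0.75, edgeR adjusted p = 0.00068). After TMM scaling its exosome values lay close together, from 54.8 to 68.1 CPM. As shares of all miRNA counts they did not, at 0.00915%, 0.00619% and 0.00252% in libraries 1, 2 and unnumbered. The TMM factors of these libraries were 1.34, 1.13 and 0.432.

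miR-24-3p, the strand given by both clusters, had 5670, 10516 and 1522 counts in fibroblasts and 13, 7 and 5 in exosomes. That was 709 ± 257 CPM against 77.5 ± 21.4 CPM (SD, n = 3 each), again without overlap. The fitted decrease was 9.38-fold (log2 -3.23 with an SE of 0.79, edgeR adjusted p = 0.00046).

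All 5 of the 3p strands were called lower in exosomes, with log2 fold changes from -4.46 to -2.96. With total counts without miR-873-3p as the scale, 3 of these calls were lost: miR-23b-3p (log2 -0.18, edgeR adjusted p = 0.84), miR-24-3p (-0.54, 0.52) and miR-27a-3p (-1.36, 0.083), as was that of miR-24-2-5p (-1.80, 0.054).

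**Figure D2:**
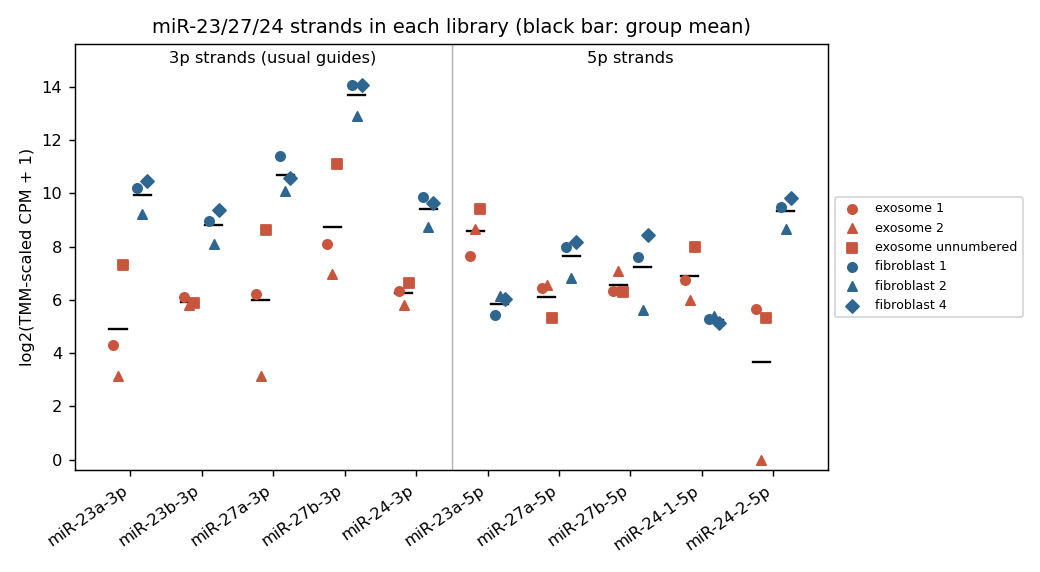
Level of each strand in each library, as log2(TMM-scaled CPM + 1), with exosome libraries in red, fibroblast libraries in blue and the group mean as a black bar. The 5 strands of the 3p arm lie lower in all exosome libraries, while miR-23a-5p and miR-24-1-5p lie higher.

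The 5p strands did not move as 1 group. miR-23a-5p had 32, 52 and 35 counts in exosome libraries 1, 2 and unnumbered and 257, 1735 and 123 counts in fibroblast libraries 1, 2 and 4. On the scaled level that was 429 ± 242 CPM in exosomes and 58.3 ± 14.8 CPM in fibroblasts (SD, n = 3 each), and the lowest exosome value, 198 CPM, was above the highest fibroblast value, 69.7 CPM. It was 7.19-fold higher in exosomes (log2 2.84, SE 0.66, edgeR adjusted p = 0.00025), while its partner strand miR-23a-3p was lower. Ranked over all listed miRNAs by mean CPM it stood 62nd in exosomes and 355th in fibroblasts.

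miR-24-1-5p, cut from the miR-23b cluster, had 17, 8 and 13 counts in exosomes and 233, 1012 and 65 in fibroblasts. On the TMM scale its levels of 62.7 to 253 CPM in exosomes lay above those of 33.6 to 40.7 CPM in fibroblasts. As shares of all miRNA counts the groups overlapped, with 0.00707% in exosome library 2 and 0.00809% in fibroblast library 2. The fit gave a 3.46-fold increase (log2 1.79, SE 0.61, edgeR adjusted p = 0.015). That call was the least firm of the 8: it was lost in 7 of 14 alternative analyses, among them those without exosome library 1, 2 or unnumbered and without fibroblast library 1 (edgeR adjusted p = 0.055, 0.057, 0.18 and 0.055), with total counts as the scale (adjusted p = 0.50) and with the non-miRNA reads as the scale (0.55). Without the unnumbered library its log2 fold change was 1.13.

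miR-24-2-5p, cut from the miR-23a cluster, shares its seed with miR-24-1-5p but went the other way. It had 8, 0 and 2 counts in exosomes and 4441, 9932 and 1730 in fibroblasts. The count of 0 in exosome library 2 allows a share of up to 0.00265% (3 counts of the total). It was 23.2-fold lower in exosomes (log2 -4.54, SE 0.86, edgeR adjusted p = 6.7e-06), the largest decrease among the 10 strands in this fit. Without exosome library 1, which held 8 of its 10 exosome counts, the log2 fold change was -5.81 (edgeR adjusted p = 0.00067).

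The 5p strands of miR-27 did not pass. miR-27a-5p had 14, 12 and 2 counts in exosomes and 1572, 2750 and 551 in fibroblasts (log2 -1.48, SE 0.65, edgeR adjusted p = 0.070), and its CPM did not overlap between groups. miR-27b-5p had 13, 17 and 4 counts in exosomes and 1207, 1209 and 669 in fibroblasts (log2 -0.99, SE 0.64, edgeR adjusted p = 0.26). On the TMM scale fibroblast library 2, at 48.6 CPM, lay below all exosome libraries. By share of all miRNA counts that library (0.00967%) lay below exosome libraries 1 and 2 but above the unnumbered one (0.00336%). miR-27a-5p was called lower in 4 of 14 alternatives: without fibroblast library 2 (adjusted p = 0.030), with no filter (0.041), with the non-miRNA reads as the scale (0.0034) and in the reads behind the normalized table (0.032), where its counts of 14, 12 and 2 were 13, 11 and 0. miR-27b-5p was called lower with the non-miRNA reads as the scale (log2 -1.95, edgeR adjusted p = 0.020). It was called higher with total counts without miR-873-3p as the scale (log2 1.99, edgeR adjusted p = 0.023).

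In all, 6 of the 10 strands were lower and 2 were higher in exosomes, where 18.6% and 11.3% of the 698 tested miRNAs were called in these directions. The TMM-scaled CPM of 9 of the 10 did not overlap between groups, against a background of 39.4%. For miR-24-1-5p, 1 of the 9, the shares of all miRNA counts did overlap. The median log2 fold change was -3.09 over the 10 strands and -0.15 over all tested miRNAs. The 6 strands that were lower are also the 6 that belong to the 100 most abundant fibroblast miRNAs. Of those 100, 76 were lower and 2 higher, with a median of -3.42, and the 6 strands ranged from -4.54 to -2.96 around that value. The other 4 strands came from the 598 less abundant miRNAs tested, of which 54 were lower and 77 higher. These 2 sets were split by fibroblast level, which also enters the fold change. How much of their counts of calls and of the median comes from this was not tested. Among 23 other miRNAs typical of fibroblasts and mesenchyme, 16 were lower, 0 were higher and 7 did not pass, with a median of -3.64. The most abundant of these in fibroblasts were miR-143-3p (log2 -5.75), miR-22-3p (-5.11), miR-21-5p (-5.23) and miR-199a-3p (-5.17).

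The fold changes are relative to the scaling between libraries. With total counts without miR-873-3p as the scale, the median of all tested miRNAs moved from -0.15 to 2.37, 36 miRNAs (5.16%) were lower and 377 (54.0%) higher, and of the strands here 2 were lower (miR-23a-3p and miR-27b-3p) and 3 higher (miR-23a-5p, miR-24-1-5p and miR-27b-5p). With total counts the median was -0.57, and 6 strands were lower and 1 higher (all miRNAs 17.3% and 6.16%). When the non-miRNA reads set the library sizes, the median was -1.13, and 8 strands were lower and 1 higher (all miRNAs 33.8% and 4.73%). Subtracting the median of all tested miRNAs takes out the shared shift of a scaling by construction. Over the 4 scalings miR-23a-3p lay between -4.70 and -4.31 from that median, miR-27b-3p between -4.56 and -3.88 and miR-24-3p between -3.23 and -2.90. miR-23a-5p lay between 2.72 and 3.00 above it and miR-24-1-5p between 1.70 and 1.94 above it.

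**Figure D3:**
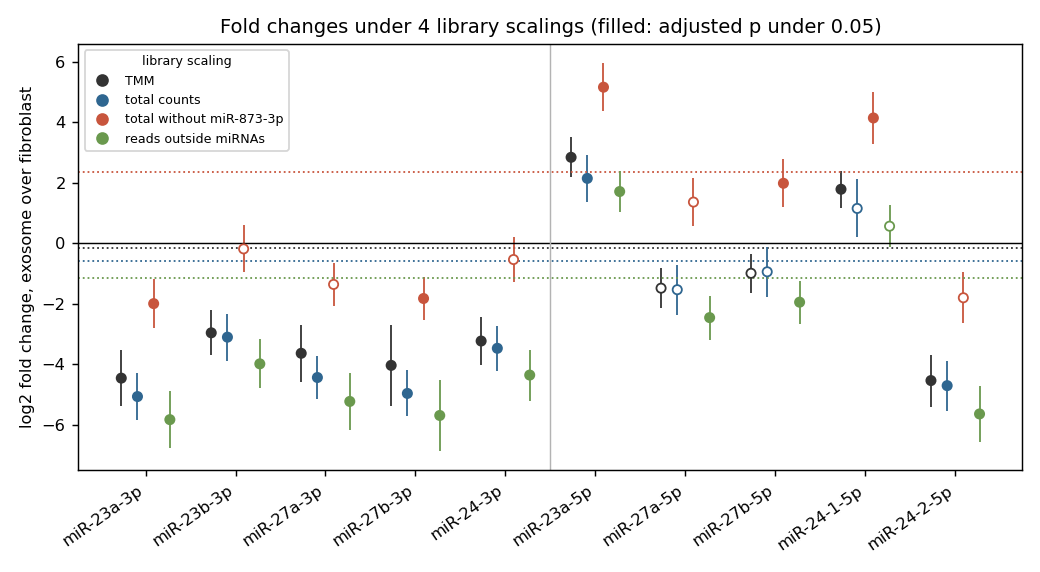
Log2 fold change (exosome over fibroblast) of each strand with its standard error under 4 library scalings, filled where the adjusted p was under 0.05, and dotted lines at the median of all tested miRNAs under each scaling. The lowest and the highest dotted line lie 3.50 apart, and between these 2 scalings the point of every strand rises. The rise of a single strand can be larger, as for miR-27b-5p, from -1.95 to 1.99.

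In the authors' deposited table, which gives fibroblast over exosome, the same directions stood with fewer calls. Its adjusted p-values were 0.00089 for miR-27b-3p (log2 4.00), 0.0015 for miR-23a-3p (4.09), 0.0057 for miR-24-2-5p (4.48) and 0.012 for miR-27a-3p (3.49). In the authors' deposited table miR-24-3p and miR-23b-3p had adjusted p-values of 0.065 and 0.16, and miR-23a-5p and miR-24-1-5p, with log2 values of -3.04 and -1.98, had 0.94 and 1. That table called 7.28% of all miRNAs, 53 higher in fibroblasts and 0 (0.0%) higher in exosomes.

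The second question was whether the arms of a hairpin changed alike. A ratio of 2 strands within a library does not depend on the scaling between libraries. For miR-23a the balance of reads was opposite in cells and exosomes. The 5p strand made up 3.45%, 10.6% and 4.37% of miR-23a reads in fibroblast libraries 1, 2 and 4. In exosomes it made up 91.4% in library 1 (32 of 35 reads, 95% Clopper-Pearson interval 76.9 to 98.2), 98.1% in library 2 (52 of 53, with a lower bound of 89.9) and 81.4% in the unnumbered library (35 of 43, 66.6 to 91.6). The log2 ratio of 5p to 3p differed by 7.58 (exact permutation p = 0.1, adjusted over 5 ratios 0.12). Among 248 hairpins with both arms past the filter, this was the third largest rise of the arm that was scarcer in fibroblasts. In the fit over all hairpins the arms of miR-23a differed in their change (edgeR's diffSpliceDGE, adjusted p = 6.7e-08). The log2 difference was 6.75 without exosome library 2 and 8.28 without the unnumbered library.

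miR-27b leaned the same way, with less separation. Its 5p strand held 1.14%, 0.626% and 1.99% of its reads in fibroblasts. It held 22.8% (12.7 to 35.8), 51.5% (33.5 to 69.2) and 3.45% (0.947 to 8.59) in exosome libraries 1, 2 and unnumbered, with the unnumbered library close to the cells. The log2 ratio was 4.36 higher in exosomes (exact permutation p = 0.1), and the arms differed in the fit (edgeR's diffSpliceDGE, adjusted p = 0.00040). Without the unnumbered library the log2 difference was 5.64, and without exosome library 2 it was 3.27 (adjusted p = 0.040).

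For miR-27a the exosome libraries disagreed. Its 5p strand held 8.56%, 9.17% and 15.8% of its reads in fibroblasts and 53.8% (33.4 to 73.4), 92.3% (64.0 to 99.8) and 9.09% (1.12 to 29.2) in exosomes. These exosome shares rest on 26, 13 and 22 reads. The unnumbered library lay within the fibroblast range. The arms differed in the fit (edgeR's diffSpliceDGE, adjusted p = 0.034), a call that was lost without exosome library 1 (0.20) or 2 (0.32), without fibroblast library 1 (0.097) or 2 (0.079), and in the reads behind the normalized table (0.058). Without the unnumbered library the adjusted p was 0.00077 and the log2 difference rose from 3.12 to 4.68.

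Both 5p strands of miR-24 were set against the shared 3p strand. In fibroblasts miR-24-2-5p had about as many reads as miR-24-3p, at 43.9%, 48.6% and 53.2% of their summed reads in libraries 1, 2 and 4. In exosomes it held 38.1% (18.1 to 61.6), 0% (0 of 7 reads, 0 to 41.0) and 28.6% (3.67 to 71.0). miR-24-1-5p held 3.95%, 8.78% and 4.10% beside miR-24-3p in fibroblasts and 56.7% (37.4 to 74.5), 53.3% (26.6 to 78.7) and 72.2% (46.5 to 90.3) in exosomes. The intervals of the last strand did not reach the fibroblast values in any exosome library. In the fit over all hairpins the strands of miR-24 differed in their change (edgeR's diffSpliceDGE, adjusted p = 1.9e-07). Within the group miR-24-1-5p stood apart (log2 3.07 against the group, adjusted p = 5.1e-07), as did 14.0% of 557 single strands, and miR-24-2-5p did not (log2 -1.31, adjusted p = 0.14).

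**Figure D4:**
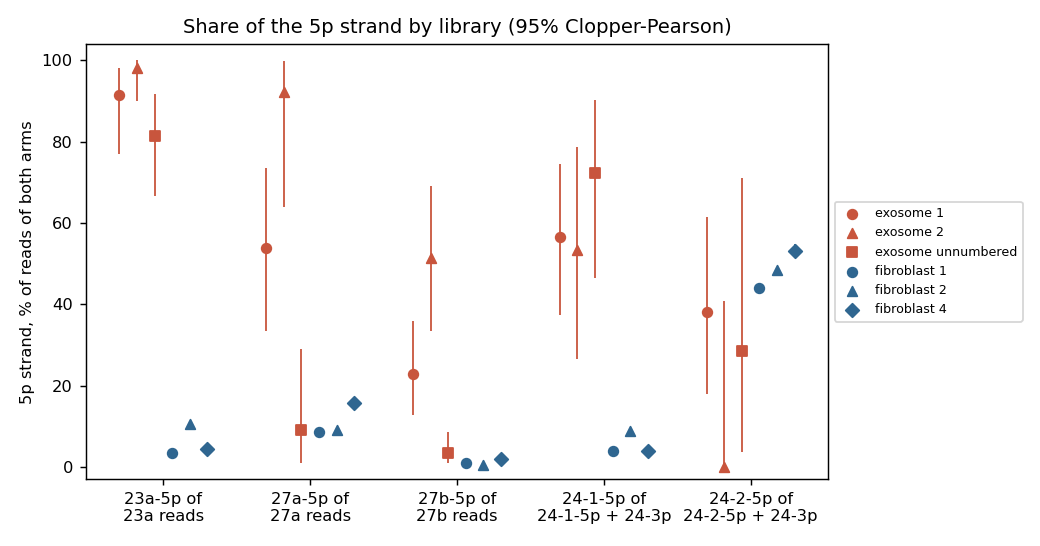
Share of the 5p strand among the reads of both arms, in %, for each library, with 95% Clopper-Pearson intervals (red for exosomes, blue for fibroblasts). miR-23a-5p holds 81.4% to 98.1% in exosomes against 3.45% to 10.6% in fibroblasts, and the unnumbered library falls among the fibroblasts for miR-27a.

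The remaining hairpin is miR-23b, whose 5p strand is listed but is not among the 10 names taken. miR-23b-5p had 10, 7 and 2 counts in exosome libraries 1, 2 and unnumbered and 422, 2846 and 130 in fibroblast libraries 1, 2 and 4 (log2 -0.63, edgeR adjusted p = 0.50), which made 10 of 21, 7 of 14 and 2 of 5 miR-23b reads in exosomes and 12.2%, 29.8% and 9.24% in fibroblasts (edgeR's diffSpliceDGE, adjusted p = 0.034). It was added after its values were seen.

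The 4 hairpin groups that hold both arms from the 10 strands were all called, where 33.8% of 269 groups were. With a minimum count of 50 as the filter all 4 were called too, where 46.7% of 152 groups were. A larger part for the scarcer arm in exosomes was common in these libraries. Over the 248 hairpins the arm that was scarcer in fibroblasts took a larger part in exosomes in 183 (73.8%), with a median log2 difference of 1.06. That arm was picked by fibroblast counts, and the 0.5 added to each count draws ratios of few exosome reads toward even. How much of the 73.8% and of the median comes from this was not tested. Ranked by the rise of that arm, from the largest down, miR-23a, miR-27b and miR-27a came 3rd, 32nd and 55th.

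The third question was whether the 2 clusters contributed alike. In fibroblasts miR-23a-3p made up 70.3%, 68.7% and 67.8% of the reads of the miR-23 pair, a narrow range. In exosomes it made up 21.4% (3 of 14 reads, 95% Clopper-Pearson interval 4.66 to 50.8), 12.5% (1 of 8, 0.316 to 52.7) and 72.7% (8 of 11, 39.0 to 94.0). The intervals of exosome libraries 1 and 2 lay below all fibroblast values, and the interval of the unnumbered library held all of them. The log2 ratio differed by -2.07 (exact permutation p = 0.4), by -3.17 without the unnumbered library (exact permutation p = 0.2, the smallest possible there) and by -1.37 without exosome library 2. miR-27a-3p was the minor partner of the miR-27 pair everywhere, at 13.9%, 12.4% and 8.17% in fibroblasts and 21.4% (11.6 to 34.4), 5.88% (0.149 to 28.7) and 15.2% (9.51 to 22.4) in exosomes, and the log2 ratio differed by 0.40 (exact permutation p = 0.4). For the miR-27 pair each exosome interval reached into the fibroblast range, and a difference was not detectable at this depth.

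The 5p strands of miR-24 gave a different picture. miR-24-2-5p made up 95.01%, 90.8% and 96.4% of the reads of the 2 strands in fibroblast libraries 1, 2 and 4. In exosomes it made up 32.0% (8 of 25 reads, 14.9 to 53.5), 0% (0 of 8, 0 to 36.9) and 13.3% (2 of 15, 1.66 to 40.5). The ratio turned from 4.09 ± 0.728 to -2.52 ± 1.52 on the log2 scale (SD, n = 3 each), without overlap (exact permutation p = 0.1, adjusted over the 3 pairs 0.3). The difference, -6.61, was -7.35 without exosome library 1 and -5.83 without exosome library 2. It is the 1 comparison here between the clusters that near-identical sequence does not blur, apart from the reads that miR-3074 may share.

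**Figure D5:**
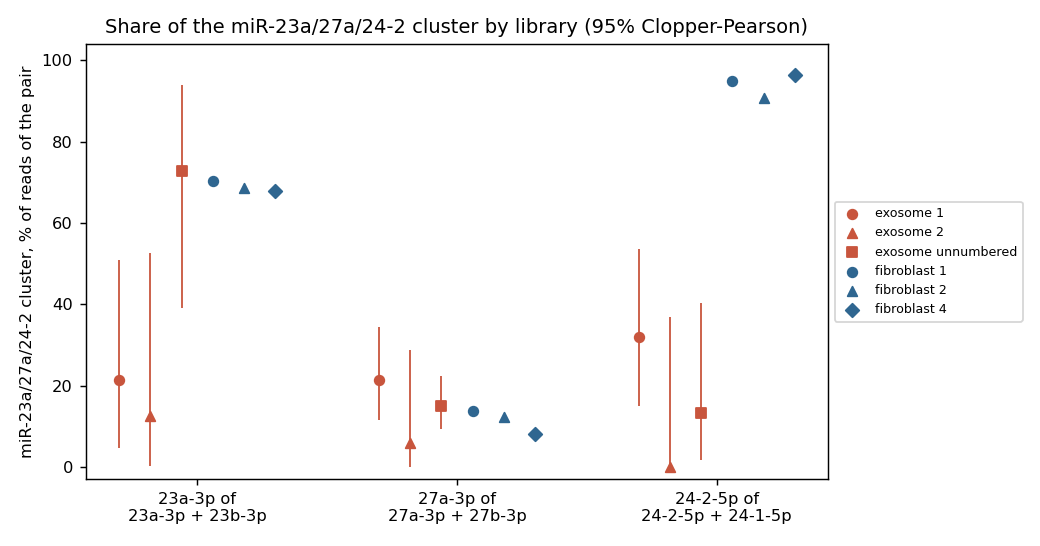
Share of the miR-23a/27a/24-2 cluster in 3 pairs of related strands, in % of the reads of the pair, for each library, with 95% Clopper-Pearson intervals. miR-24-2-5p holds 90.8% to 96.4% of its pair in fibroblasts and 0% to 32.0% in exosomes, while the other 2 pairs overlap between groups.

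Ordered by mean level, fibroblasts had miR-27b-3p first, at 13889 CPM, and its range did not meet that of the next strand, miR-27a-3p, at 1778 ± 844 CPM. Then came miR-23a-3p (1049 CPM), miR-24-3p (709), miR-24-2-5p (671), miR-23b-3p (474), miR-27a-5p (217) and miR-27b-5p (197), each with a range that overlapped that of its neighbour. miR-23a-5p (58.3 CPM) and miR-24-1-5p (37.3 CPM) were last, and their ranges did not overlap. Compared within each library, miR-24-3p over miR-24-2-5p, miR-27a-5p over miR-27b-5p and miR-27b-5p over miR-23a-5p held in 2 of the 3 fibroblast libraries. Every other step of this order held in all 3. In exosomes miR-27b-3p (859 CPM) and miR-23a-5p (429 CPM) led, and miR-27a-3p (157 CPM) and miR-24-1-5p (140 CPM) came next. Every neighbouring pair in that order overlapped except miR-23b-3p (60.4 CPM) and miR-24-2-5p (29.5 CPM), the last in that order. Within exosome libraries that last step and miR-23a-5p over miR-27a-3p held in all 3, and the other steps in 1 or 2. This order rests on the unnumbered library. Over exosome libraries 1 and 2 miR-23a-5p led (303 CPM), then miR-27b-3p (199), miR-27b-5p (107), miR-27a-5p (90.3) and miR-24-1-5p (84.0), while miR-27a-3p (41.1) came 8th and miR-23a-3p (13.2) last.

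The miRNAs whose levels most resembled the mean profile of the 5 strands of the 3p arm over the 6 libraries were miR-3586-3p, miR-151-3p, miR-214-3p, miR-101a-3p and miR-186-5p. Their root mean square distance on centred log2 CPM was 0.30 to 0.45, where the median of 415 candidates was 2.27. The mean profile of the 5p strands was most like those of miR-320-3p, miR-181d-3p, miR-30c-1-3p, miR-351-3p and miR-551b-5p (distance 0.22 to 0.38, median 1.17). The second profile averages strands that moved in opposite directions and describes no single strand.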

How the data were processed

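Raw counts of reads, 1 row per mature miRNA, were deposited by the authors, and every main test used them. A second table held a normalized signal, reads divided by 1 size factor per library by the authors, as its values show. Every value, multiplied by that factor, was whole to within 0.05 reads, and the reads came to 99.3% to 99.8% of the raw counts. It ended in a row named rest that names no miRNA, with 63.1% to 84.4% of reads, which was left out except as an alternative scale. The authors' deposited comparison gave a fold (ratio), its log2 value and a p-value, per the file headers. The submitters' processing notes name CASAVA 1.8.2, cutadapt 1.2.1, DESeq and the build rn5. The sources used here give no aligner, miRNA release or counting rule.

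The test was that of edgeR 4.0.16 (R 4.3.3) after TMM, filterByExpr (minimum count 10, minimum total 15, leaving 698 of 728 miRNAs), with two-sided quasi-likelihood F and Benjamini-Hochberg adjustment over all tested miRNAs, threshold 0.05. SE is |log2 fold change| over the square root of F. Arm use was tested with diffSpliceDGE over 269 hairpin groups, named without arm and copy number. Ratios used raw counts plus 0.5, and shares exact permutation tests. Fits were tested on simulated data. DESeq2 1.42.0, other scalings, other filters (none, or a minimum count of 50), a replicate block and leaving out each library were alternatives. Libraries of the same group differed by more than sampling noise, with a chi-square of 4.10 to 621 per degree of freedom. All 10 strands were named. Beside them stood the 5 miRNAs nearest in profile with a mean CPM of 50 or more, the 4 most abundant of the mesenchymal list, and lists of cell type markers. Members and lists were chosen with earlier results of these data known.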

Additional observations from a re-analysis of the deposited data

How the results depend on the processing

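Exosome depth was the main limit: the 10 strands had 10 to 172 exosome counts each over 3 libraries. With total counts, 43 miRNAs and 1 of the strands were higher. With total counts without miR-873-3p, 36 miRNAs and 2 strands were lower and 377 miRNAs higher, miR-27a-5p turned to a log2 fold change of 1.37 (adjusted p = 0.12) and miR-27b-5p to 1.99 (0.023). With the non-miRNA reads as library sizes, 236 miRNAs were lower and 33 miRNAs and 1 strand higher. The labels' replicate numbers joined only libraries 1 and 2, whose same-numbered deviations correlated at -0.07 and 0.16 across miRNAs, so they were not taken to pair the samples. Each library without a same-numbered partner was its own block, so the replicate block compared the groups in libraries 1 and 2 alone. With the replicate block 1 strand was higher, miR-24-1-5p no longer passed (log2 1.09, adjusted p = 0.17) and miR-27b-5p turned to 0.091 (adjusted p = 0.93), while 138 miRNAs were lower, 96 higher and 103 hairpin groups called. The arm difference of miR-27a was 2.30 in the reads behind the normalized table (adjusted p = 0.058). Leaving out each library gave 86 to 139 miRNAs lower and 46 to 78 higher, 5 to 7 strands lower and 1 to 2 higher, 41 to 99 hairpin groups called and 3 to 4 of the 4 here. The lowest counts of groups came without a fibroblast library, where the filter left 359 to 414 miRNAs. The log2 arm difference then ranged from 6.75 to 8.28 for miR-23a, 1.64 to 4.68 for miR-27a, 3.27 to 5.64 for miR-27b and 0.54 to 1.201 for the summed 5p strands of miR-24. The difference in the share of counts ranged from -2.07 to -1.84 percentage points, and the log2 cluster ratios from -3.17 to -1.37 for miR-23, 0.02 to 0.84 for miR-27 and -7.35 to -5.83 for the 5p strands of miR-24. The arm results were also run under the 3 other scalings, chosen after seeing the data, where all 4 groups were called. Of 166 alternative values of single strands, 145 kept their direction and side of the threshold, 13 lost a call, 5 gained one and 3 reversed. The 166 include the arm-use values of miR-24-1-5p and miR-24-2-5p against their hairpin group, all of which kept both. Except where a filter or a left-out library shows it, the cause was not tested.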
